A study of Mus musculus with 8 samples.

Results

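The transcript profile of tumor endothelial cells (TECs) in control mice was described from the 4 control libraries among the 8 RNA-seq libraries of the study, chosen by their genotype label alone. In these libraries 13477 of the 33641 listed genes (40.1%) had a level of at least 1 TPM (transcripts per 1000000 transcripts) in every library, and these genes are described here by their mean TPM, rank and spread. TPM is normalized for transcript length and library total, so that levels of different genes can be set side by side. Lewis lung carcinoma (LLC) cells, a mouse lung cancer line, had been injected into the left lung of mice 6 to 8 weeks old, and on day 21 the tumors were microdissected and CD45-CD31+ cells were sorted by FACS. The labels give the genotype of the 4 mice only as control. In the study's methods the controls of this tumor model are C57Bl/6 wild-type mice, whereas its text elsewhere names littermates with only a Foxf1 fl/+ allele or only the Pdgfb-CreER transgene, treated with tamoxifen, and the sources do not say which of these the 4 mice were. The libraries are called C1 to C4 here, following the numbers of their titles.

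Endothelial cells line blood vessels and control the passage of fluid, oxygen and leukocytes. In the lung most of them are capillary cells, divided into general capillary cells, which carry Gpihbp1 and can renew the capillary bed, and aerocytes, which carry Car4 and are specialized for gas exchange. Tumors recruit such vessels through growth factors of the VEGF family, and the growth state of the vessel wall is set by opposing receptor pathways (VEGF, Notch, TGF-beta and BMP, angiopoietin and TIE, and Wnt).

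The 4 libraries had similar overall profiles. Pearson correlations of log2(TPM + 1) across the described genes lay between 0.968 and 0.979 for the 6 pairs, and no pair of libraries shared equal nonzero values. Among the described genes 4704 had a mean TPM between 1 and 10, 7362 between 10 and 100, 1290 between 100 and 1000, and 121 had at least 1000. The 10 most abundant genes held 13.7% of the TPM in C1, 20.4% in C2, 23.6% in C3 and 18.7% in C4. The 13 protein-coding genes of the mitochondrial genome held 3.91% in C1 and 6.41% to 7.28% in the other libraries. The deposited values hold no read numbers. The depth behind them is thus unknown, and the spread between libraries is the only measure of error. No second group entered the description, and no test between groups was run.

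**Figure D1:**
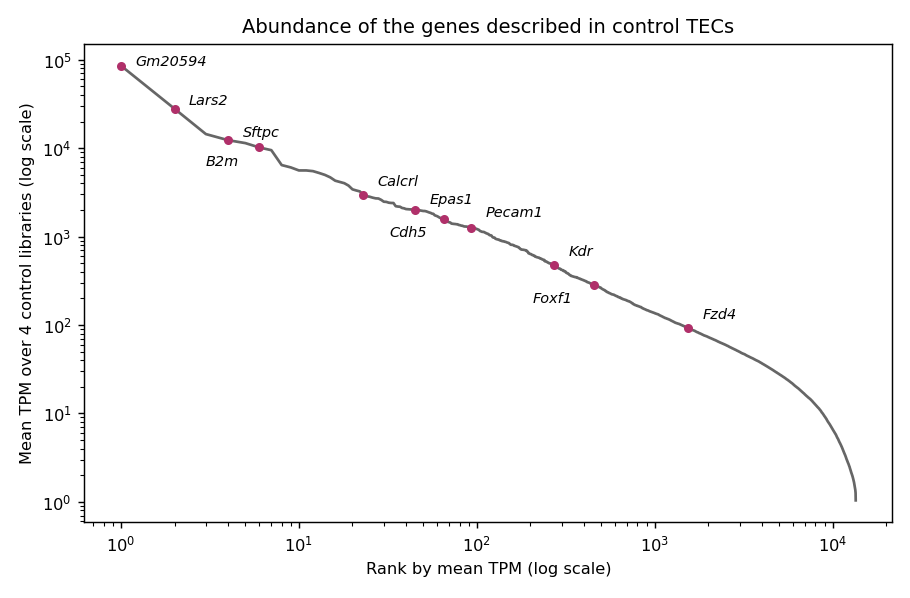
Mean TPM over the 4 control libraries (log scale) against rank by mean TPM (log scale) for the 13477 described genes, drawn as a line, with named genes as points. Cdh5 (rank 65) and Pecam1 (rank 93) lie among the 121 genes with a mean of at least 1000 TPM, and Foxf1 stands at rank 458.

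The most abundant gene of the profile, Gm20594, is a short gene whose transcript resembles the mitochondrial 16S ribosomal RNA. It was listed at 51140 TPM in C1, 97693 in C2, 113202 in C3 and 80010 in C4 (mean 85511 ± 26626 SD, n = 4), and ranked first in every library. C1 was the lowest, as it was for the mitochondrial genes. Gm20594 lies in the nuclear genome (GRCm38, chr6:79817916-79818364, plus strand), and its 449-base transcript aligned over 435 bases with mt-Rnr2, the mitochondrial 16S ribosomal RNA gene, with 385 identical bases (88.5%). The stretches below are shown because the most abundant value of the profile rests on a sequence with so close a relative. They are 90 aligned bases of the annotated transcripts in GENCODE vM21, 5′ to 3′, bases 167 to 256 of Gm20594 and bases 808 to 897 of mt-Rnr2, with the 7 differing positions in capitals.
Gm20594: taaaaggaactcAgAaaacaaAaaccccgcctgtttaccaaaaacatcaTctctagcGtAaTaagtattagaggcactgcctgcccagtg
mt-Rnr2: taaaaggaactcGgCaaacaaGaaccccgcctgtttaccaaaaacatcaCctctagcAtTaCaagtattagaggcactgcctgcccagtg
The third gene by mean TPM, Gm29216 (chr1:24615706-24616197, minus strand), is annotated as an unprocessed pseudogene and matched the mitochondrial gene mt-Co1 in 482 of 483 aligned bases (99.8%). Its values were 10834 TPM in C1, 15474 in C2, 17654 in C3 and 13713 in C4, and C1 was again the lowest. The value of Gm29216 is therefore uncertain, since the counting could have split reads between near-identical copies. For Gm20594 the match is looser, and its part in the listed value was not tested. The second gene, Lars2, encodes the mitochondrial leucyl-tRNA synthetase, and its main transcript had no alignment with a mitochondrial transcript. Matches on the opposite strand, to nuclear genes or of other Lars2 transcripts were not examined. Whether the listed level of Lars2 holds reads from another source was thus not tested. Lars2 (chr9:123366927-123462666) was listed at 22833 TPM in C1, 30291 in C2, 24401 in C3 and 34023 in C4.

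The fourth gene by mean TPM was Sftpc, the surfactant protein of alveolar type II cells, which ranked from 2 to 13 in a library (mean 12303 ± 9898 TPM, n = 4) and is described with the epithelial markers below. Of the other genes of the first 20, mitochondrially encoded subunits of the respiratory chain and of ATP synthase filled 9 places, led by mt-Co2 (mean 11401 ± 2542 TPM, n = 4) and mt-Co1 (9483 ± 2833). Ribosomal proteins filled 3 places, with Rps27 at 5493 ± 511.4, Rpl41 at 5235 ± 289 and Rps29 at 4981 ± 628. B2m, the light chain of MHC class I, had 12275 TPM in C1, 9579 in C2, 7799 in C3 and 11018 in C4. The surface antigens Ly6a, which is Sca-1, and Ly6e had means of 6053 ± 1126 and 3773 TPM, and Ifitm3, an interferon-induced membrane protein, had a mean of 4013. The place of single genes was loose: of 19 neighbouring pairs in this order, 4 stood in the same order in all 4 libraries. Of the 82 described cytosolic ribosomal protein genes, 1 had a range of 2-fold or more between the libraries, beside 16.6% of all described genes.

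The endothelial identity of the sorted cells was examined with 20 endothelial markers, all of which were described in every library. Cdh5, the VE-cadherin of endothelial junctions, had 1524 TPM in C1, 1640 in C2, 1419 in C3 and 1813 in C4 (1599 ± 169, n = 4). Pecam1, which encodes CD31 and was thus used for the sort, had 1289, 1200, 1061 and 1505 TPM in C1 to C4 (1264 ± 186). Kdr, the main signalling receptor for VEGF-A, had 363, 444, 516 and 587 TPM (478 ± 95.9) and stood at rank 272. The lowest single value of the 3 genes was that of Kdr in C1. The summed TPM of the 20 markers was 15630 in C1, 15180 in C2, 13021 in C3 and 16864 in C4, and of the markers only Vwf had a 2-fold range (5%, beside 16.6% of all described genes).

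Markers of other cell types were present at widely different levels. Ptprc, which encodes the CD45 used to exclude leukocytes, had 8.21, 6.42, 9.13 and 2.94 TPM in C1 to C4. The 8 T lymphocyte markers summed to 23.2 to 39.3 TPM, the 7 fibroblast markers to 93.5 to 146, the 8 pericyte and smooth muscle markers to 64.9 to 94.4 and the 4 markers listed as mesothelial to 1.73 to 4.88. The sums were 101 to 551 TPM for the 6 erythroid markers, with hemoglobin genes highest in C2, and 749 to 1602 TPM for the 6 platelet markers. The 6 B lymphocyte markers summed to 58.9, 105, 506.6 and 11.3 TPM in C1 to C4, of which Igkc, the immunoglobulin kappa constant region, made up 33.4, 97.0, 482 and 3.50, while Cd79a, a part of the B cell receptor, had a mean of 1.10 TPM.

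The epithelial sum set C3 apart, and so did the myeloid sum through Lyz2. The 10 alveolar and airway epithelial markers summed to 10605 TPM in C1, 6956 in C2, 32723 in C3 and 9050 in C4, and all 10 had a range of 2-fold or more with the highest value in C3, beside 16.6% of all described genes with such a range. Most of the sum was Sftpc at 9044, 5483, 26986 and 7697 TPM. Epcam and Cdh1, the epithelial adhesion genes, were low in comparison, with 3.81 to 15.2 and 7.34 to 30.2 TPM. The 12 myeloid markers summed to 2022, 1542, 5126 and 1465 TPM, of which Lyz2, a lysozyme of macrophages and type II cells, made up 1875, 1351, 4955 and 1400. Lyz2 was above Cdh5 in C1 and C3 and below it in C2 and C4. Cd68 and Csf1r, markers of macrophages, had means of 46.7 and 3.0 TPM and were not highest in C3. The geometric mean of the myeloid list was 12.9, 14.9, 15.5 and 6.53 TPM in C1 to C4, so that C3 was close to C2. In these bulk libraries fewer cells of a type and less RNA per cell cannot be told apart. The geometric mean of the endothelial markers in C3 was 84.6% of the mean over the libraries, against 101% to 109% in the others, and results that touch C3 are given below with this in view. These endothelial values are not scaled for the general level of TPM in a library. The median-ratio scaling factors, which measure that level over all genes, were 1.10, 0.990, 0.939 and 0.985 in C1 to C4.

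**Figure D2:**
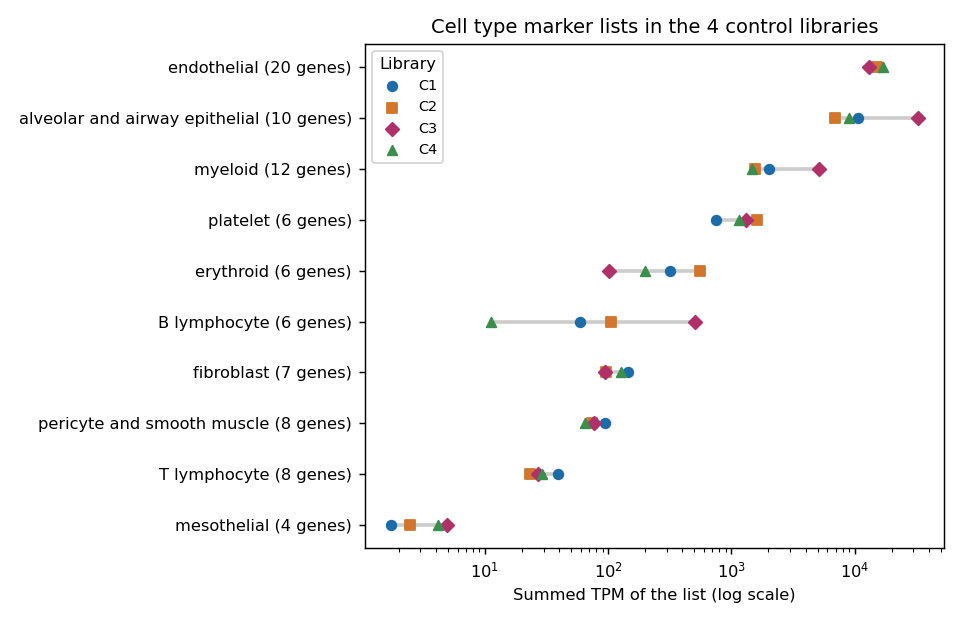
Summed TPM (log scale) of 10 cell type marker lists, with the number of listed genes in brackets, in each of the 4 control libraries, drawn as points joined by a grey line from the lowest to the highest. The endothelial sums lie close together between 13021 and 16864 TPM, while the epithelial and myeloid sums are highest in C3.

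Of the endothelial subtype lists, the general capillary and aerocyte lists had the highest summed TPM. The lists differ in make-up, so their sums do not rank the subtypes. Cd93 and Tek of the general capillary list are also endothelial markers. The median member had a mean of 307 TPM in the general capillary list, 129 in the aerocyte list and 122 in the arterial list. The 9 general capillary markers summed to 3856 TPM in C1, 3726 in C2, 2605 in C3 and 3411 in C4. None had a 2-fold range, against 2 of 9 aerocyte (22.2%), 5 of 10 arterial (50%), 3 of 8 venous (37.5%), 1 of 6 described lymphatic (16.7%) and 2 of 14 tip cell markers (14.3%), beside 16.6% of all described genes. These lists are short, and no test was made between them. Gpihbp1, which carries lipoprotein lipase to the capillary lumen, had 1240, 1324, 865 and 1137 TPM (1142 ± 200, n = 4). The 9 aerocyte markers summed to 2357, 2285, 2959 and 3584 TPM. Car4, a carbonic anhydrase at the aerocyte surface, had 1243, 1104, 1477 and 1730 TPM (1389 ± 275). The ratio of Car4 to Gpihbp1 was thus 1.0 in C1, 0.834 in C2, 1.71 in C3 and 1.52 in C4. Ednrb, an endothelin receptor of aerocytes, varied in the same order as the aerocyte sums except for C1 and C2, at 108, 172, 234 and 282 TPM, and Emp2, a membrane protein, had 489, 533, 653 and 797. Prx, the periaxin scaffold protein and another aerocyte marker, had a different order, with 260, 143, 178 and 270 TPM and C1 above C3. C3 and C4 thus had the higher aerocyte sums and the higher ratios of Car4 to Gpihbp1, but not every aerocyte marker followed this order.

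The marker lists of larger vessels, of lymphatics and of sprouting tip cells had lower summed TPM. The 10 arterial markers summed to 1972, 1495, 1165 and 1982 TPM in C1 to C4, of which Mgp, a matrix protein that binds BMPs, made up 965, 681, 591 and 1250. Efnb2, the arterial ephrin ligand, was steadier at 151 ± 10.5 TPM (n = 4), and its venous receptor Ephb4 had 52.2 ± 9.54, so that Efnb2 exceeded Ephb4 by 2.50 to 3.42 times in each library. Of the venous markers, Vwf, the platelet-binding clotting glycoprotein, had 639, 617, 329 and 722 TPM, lowest in C3. Lyve1, a hyaluronan receptor, had a mean of 449 ± 108 TPM, while Prox1, the transcription factor that defines lymphatic identity, was at 0.413 to 0.953 TPM and so under 1 TPM in every library. The venous chemokine-binding receptor Ackr1 had a mean of 4.46 TPM, and the tip cell gene Esm1 had 16.4 ± 2.80. Prox1, Ackr1 and Esm1 were singled out after their values were seen.

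Among 400 genes for receptors and adhesion molecules, 272 were described (68%), with a median mean TPM of 19.5. Of these, 57 had a mean of at least 100 TPM and 9 of at least 1000, and all 400 together held 2.97% to 3.69% of the TPM. A range of 2-fold or more was seen in 59 (21.7%), beside 16.6% of all described genes. Without C1 the count was 32 (11.8%, beside 10.3% of all genes) and without C3 it was 38 (13.97%, beside 10.4%). The plot of the 15 most abundant members shows their levels in each library.

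**Figure D3:**
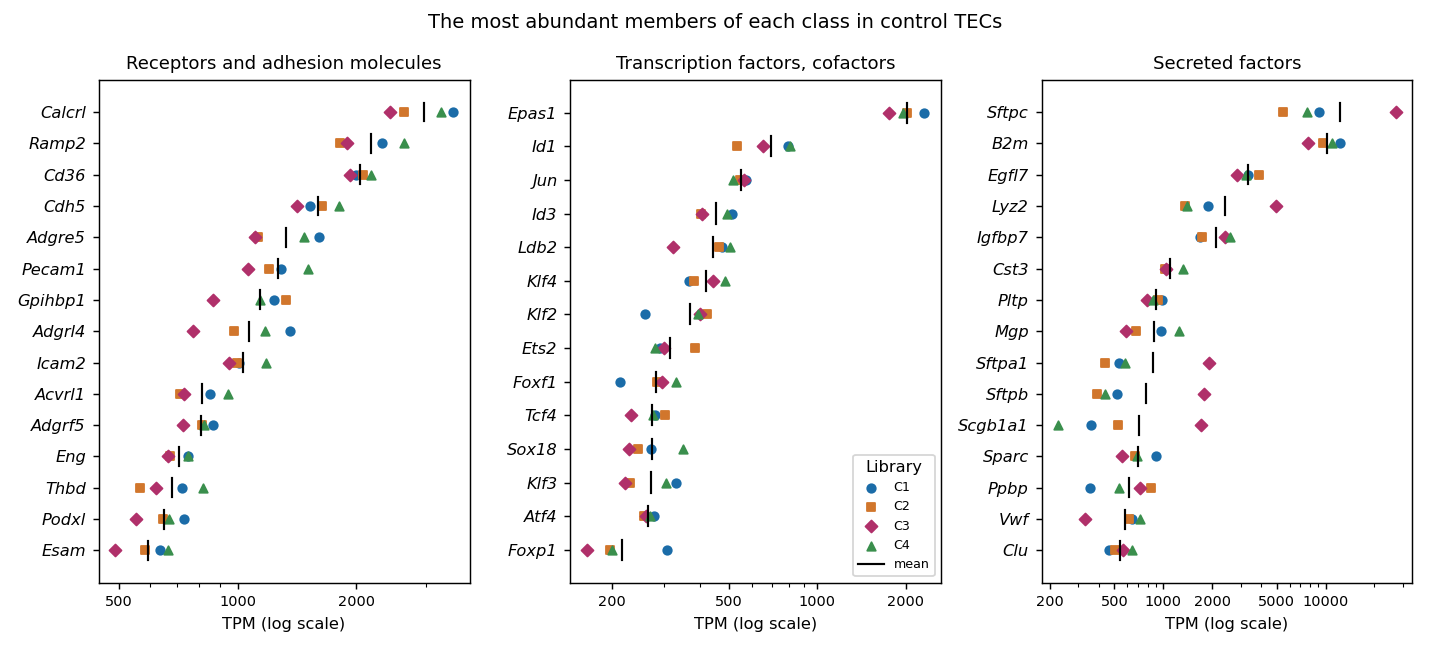
TPM (log scale) of the 15 receptors and adhesion molecules and 15 secreted factors with the highest mean, and of 14 of the 15 highest transcription factors and cofactors, in each of the 4 control libraries (points), with the mean as a black line. Receptors and transcription factors lie within narrow ranges, whereas Sftpc, Lyz2, Sftpa1, Sftpb and Scgb1a1 have 1 library, C3, far above the others.

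The adrenomedullin receptor led the receptors. It consists of Calcrl, a G protein-coupled receptor, and Ramp2, the accessory protein that gives it specificity for adrenomedullin, a peptide that supports the endothelial barrier. Calcrl had 3514 TPM in C1, 2643 in C2, 2437 in C3 and 3282 in C4 (2969 ± 511.2, n = 4), and Ramp2 had 2328, 1822, 1899 and 2650 (2175 ± 387). Calcrl was above Ramp2 in each library, by 1.24 to 1.51 times, and Ramp2 exceeded Ramp3, an alternative accessory protein, by 96.3 to 125 times. The promoter of Calcrl is shown because Calcrl was the most abundant receptor. It is the RefSeq window from 250 bases before to 50 bases after the transcript start (GRCm38.p6, chr2:84425217-84425516, minus strand), 5′ to 3′, with the letters AGGAAG, a core recognized by ETS factors, in capitals.
Calcrl: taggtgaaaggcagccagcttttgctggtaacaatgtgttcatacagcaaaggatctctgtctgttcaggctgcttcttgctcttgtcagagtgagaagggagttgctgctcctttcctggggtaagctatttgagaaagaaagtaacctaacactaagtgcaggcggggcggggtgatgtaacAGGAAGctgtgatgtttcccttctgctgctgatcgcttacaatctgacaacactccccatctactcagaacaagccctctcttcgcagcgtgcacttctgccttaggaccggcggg
AGGAAG was searched on both strands and was found in 8 of 14 promoter windows (57.1%) of the 10 endothelial markers that matched the RefSeq table, beside 35.4% of all 32851 windows and 33.2% of those of the described genes. The window of Kdr, also an endothelial marker, held 0. Among the most abundant members with a window, AGGAAG was in 4 of 6 windows of receptors, 5 of 12 of secreted factors and 2 of 10 (20%) of transcription factors. Of the 5 other motifs searched on both strands, the endothelial windows held the GATA core AGATAA in 14.3% (11.2% of all windows), the SOX core AACAAT in 21.4% (10.7%), the KLF core CCACCC in 42.9% (31.5%), TATAAA in 14.3% (13.6%) and CCAAT in 28.6% (37.4%). In the windows of the described genes these 5 motifs were found, in the same order, in 6.78%, 6.25%, 36.6%, 7.63% and 37.7%. With 14 windows the endothelial shares are coarse. A match is a description of the letters and not a site of binding.

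Scavenging, lipid and adhesion receptors followed. Cd36, a fatty acid and thrombospondin receptor, had 1998, 2081, 1929 and 2178 TPM (2046 ± 108, n = 4), and was one of the steadiest abundant genes. It exceeded Scarb1, an HDL receptor, by 9.10 to 13.4 times. Icam2, an adhesion molecule for leukocytes, had 1033 ± 102 TPM, the sialomucin Podxl had 649 ± 73.6, and the junction protein Esam had 593 ± 77.1. Thbd, the thrombomodulin that turns thrombin into an anticoagulant, had 681 ± 112 TPM. Among adhesion G protein-coupled receptors, Adgre5 (CD97) had 1327 ± 251 TPM, Adgrl4 (ELTD1), which is found in sprouting vessels, had 1070 ± 251, and Adgrf5, which is known in lung endothelium and epithelium, had 808 ± 58.3. Among the integrins, which bind matrix, Itga6 of the laminin receptors had 407 ± 106 and Itgb1 304 ± 25.6. The order of neighbours was loose here too: Calcrl over Ramp2, Cd36 over Cdh5, Icam2 over Acvrl1, Adgrf5 over Eng and Podxl over Esam held in all 4 libraries, and the other 9 of 14 neighbouring pairs changed places in at least 1 library.

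Receptors of the growth pathways showed clear orders within their families. In the BMP pathway, which keeps endothelium quiescent through BMP9 and BMP10, the type I receptor Acvrl1 (ALK1) had 850, 716, 731 and 947 TPM in C1 to C4, its coreceptor Eng had 709 ± 46.2 and the type II receptor Bmpr2 had 417 ± 42.2. Acvrl1 exceeded Bmpr2 by 1.72 to 2.08 times and Tgfbr1 (ALK5), the type I receptor for TGF-beta, by 32.5 to 49.0 times. None of the 11 described TGF-beta and BMP receptors had a 2-fold range, beside 16.6% of all described genes, a gap that is small in a list of this size. In the VEGF family, Kdr was above the decoy receptor Flt1 (281 ± 29.1 TPM) by 1.18 times in C1 and 2.13 times in C4, and above Flt4, the receptor of lymphatic growth, by 10.2 to 14.3 times. Nrp1, a coreceptor for VEGF and semaphorins, had 348 ± 57.0 TPM. In the angiopoietin pathway the receptor Tek (TIE2) had 489, 357, 260 and 434 TPM, lowest in C3, and exceeded its partner Tie1 (137 ± 20.3) by 2.33 to 3.10 times.

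In the Notch family, which restrains sprouting, Notch1 had 127 ± 25.0 TPM and Notch4 had 97.3 ± 10.3, while Notch2 and Notch3 had 5.4 and 1.5. Notch1 was above Notch4 in each library, by 1.07 to 1.63 times. Among Wnt receptors the Frizzled gene with the highest level was Fzd4, the receptor for Norrin and Wnt ligands in endothelium, with 95.2 TPM in C1, 100 in C2, 77.0 in C3 and 94.7 in C4 (91.9 ± 10.3, rank 1541). It exceeded Fzd6, the next Frizzled, by 4.02 to 4.65 times. Tspan12, the Fzd4 coactivator for Norrin, had 103 ± 11.3, and the coreceptors Lrp5 and Lrp6 had 52.3 ± 7.83 and 38.9 ± 2.58. S1pr1, the sphingosine 1-phosphate receptor that stabilizes junctions, had 530 ± 96.8 TPM and exceeded S1pr3 by 150 to 332 times.

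Of 500 genes for transcription factors and cofactors, 322 were described (64.4%), with a median mean TPM of 21.7. All 500 together held 1.72% to 2.04% of the TPM. Of the described factors 48 had a mean of at least 100 TPM and 1 of at least 1000. A 2-fold range was seen in 52 (16.1%), close to the 16.6% of all described genes. Without C1 it was seen in 41 (12.7%, beside 10.3% of all genes) and without C3 in 30 (9.32%, beside 10.4%). The gene above 1000 was Epas1 (HIF-2alpha; GRCm38, chr17:86753700-86833410), the oxygen-regulated factor abundant in endothelium, with 2314 TPM in C1, 2031 in C2, 1761 in C3 and 1967 in C4 (2018 ± 228, n = 4). Its relative Hif1a had 38.8 ± 5.48 TPM, so that Epas1 was 45.9 to 55.7 times higher in each library.

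The other abundant factors belong to families known in the vessel wall. Id1 and Id3, dominant inhibitors of basic helix-loop-helix factors and targets of BMP signaling, had 698 ± 130 and 452 ± 57.5 TPM, with Id1 above Id3 by 1.33 to 1.64 times. The flow-regulated factors Klf4 and Klf2 had 418 ± 55.4 and 368 ± 72.9 TPM. Klf2 was lowest in C1, at 260 TPM against 392 to 420 in the others, and was above Klf4 in C2 alone. Of the SOX factors that specify endothelium and arteries, Sox18 had 271, 244, 227 and 350 TPM, Sox7 had 135 ± 33.1 and Sox17 had 123 ± 35.8, and Sox18 was above Sox17 by 1.55 times in C2 and 4.05 times in C4. Among ETS factors, Ets2 led with 314 ± 47.2 TPM, and Erg, a guardian of endothelial identity, had 115 ± 15.4. Ldb2, a cofactor of LIM-domain proteins, had 440 ± 80.5 TPM, and Gata2 of the same regulatory complexes had 205 ± 40.9. Jun and Atf4, factors of the stress response, were among the steadiest, with 549 ± 23.7 and 266 ± 8.98 TPM.

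Foxf1, a forkhead factor of the lung mesenchyme and pulmonary endothelium (GRCm38, chr8:121084386-121088144), had 213 TPM in C1, 285 in C2, 296 in C3 and 331 in C4 (281 ± 49.5, n = 4). It was the tenth transcription factor by mean TPM and stood at rank 399 to 672 of the genes of a library. By mean it was the highest of the 17 described forkhead genes, followed by Foxp1, a repressor found in many tissues, at 307, 196, 164 and 199 TPM. The order was not fixed: Foxp1 was above Foxf1 in C1, and the ratio of Foxf1 to Foxp1 ran from 0.695 in C1 to 1.80 in C3. The next forkhead gene, Foxj3, had 57.5 ± 3.68 TPM. Tbx3, a T-box repressor, had 216 ± 32.3 TPM and Tcf4, an E protein, had 273 ± 29.5. The TCF/LEF factors that carry canonical Wnt signals were lower, with Tcf7l2 at 26.8 ± 3.55, Tcf7 at 24.2 ± 3.15, Tcf7l1 at 5.59 ± 1.48 and Lef1 at 2.17 ± 0.427.

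Of 565 genes for secreted factors, 296 were described (52.4%), with a median mean TPM of 13.6, and all 565 together held 4.04% to 6.84% of the TPM. A range of 2-fold or more was seen in 124 of 296 (41.9%), a larger share than of receptors or transcription factors, beside 16.6% of all described genes. Without C3 the share was 24.3%, beside 10.4% of all genes, and without C1 it was 28.4%, beside 10.3%. The shares of all genes are not matched for level. The class median was below the 17.6 TPM of all described genes, and low genes more often had such a range. Of the 124 genes, 45 were highest in C1, 41 in C3, 22 in C4 and 16 in C2. Over all described genes with such a range, these libraries were highest for 42.1%, 27.7%, 12.9% and 17.2%. Of the 15 most abundant, Sftpc, Sftpa1, Sftpb, Scgb1a1 and Lyz2 had the values of the epithelial and myeloid lists above, with C3 the highest of each, and Ppbp, a platelet chemokine that is itself on the platelet list, had 354, 838, 714 and 536 TPM. The part of epithelial, myeloid and platelet RNA in the spread of this class was not tested.

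Egfl7, a matrix-bound factor made by endothelium that guides vessel formation, was the most abundant secreted factor on the endothelial marker list. It had 3305 TPM in C1, 3893 in C2, 2855 in C3 and 3234 in C4 (3322 ± 429, n = 4). Igfbp7, a secreted binding protein deposited around tumor vessels, had 1693, 1731, 2409 and 2593 TPM, with C3 and C4 above C1 and C2. Cst3, a cysteine protease inhibitor, lay between 1029 and 1034 TPM in C1 to C3 and had 1316 in C4. Pltp, which transfers phospholipids between lipoproteins, had 896 ± 82.9 TPM, Sparc, a collagen-binding matricellular protein, had 703 ± 142, and Clu, a secreted chaperone, had 544 ± 77.3.

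Growth factors and vasoactive peptides were also expressed by the sorted population. Vegfa had 399, 298, 207 and 257 TPM in C1 to C4, and exceeded Pgf by 43.5 to 73.3 times and Vegfb by 10.7 to 19.4 times. Pdgfb, the ligand with which endothelium recruits pericytes, was steady at 144 ± 8.94 TPM and exceeded Pdgfa by 3.79 to 4.74 times. Edn1, the vasoconstrictor endothelin-1, had 320, 169, 103 and 91.7 TPM, with C1 highest. Bmp6 had 201 ± 24.5 TPM and was above Bmp4 by 2.88 to 4.06 times. Angpt2, which destabilizes vessels, had 24.4 ± 2.69 TPM and exceeded its antagonist Angpt1 by 4.54 to 7.38 times. The basement membrane chains Col4a1 and Col4a2 had 276 ± 33.6 and 227 ± 26.8 TPM, and their ratio was nearly fixed, at 1.18 to 1.26. The guidance ligand Sema3c had 307 ± 55.1 and the Kit ligand Kitl had 257 ± 57.6. Of 38 Wnt and Hedgehog ligands and antagonists, 7 were described, beside 40.1% of all listed genes, the highest being Dhh at 14.9 ± 2.51 TPM.

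The spread between libraries was small for most genes. The median SD of log2(TPM + 1) was 0.211, the median ratio of the highest to the lowest library was 1.43, and 326 genes had a ratio of at least 4. A ratio of 2 or more was found for 2232 of the 13477 genes (16.6%). It was found for 32.2% of the genes with a mean under 10 TPM and for 8.20% (719 of 8773) of those with a mean of at least 10, so low genes carried most of the spread. Without C1 the count was 1385 and without C3 it was 1404, against 1795 without C2 and 1633 without C4. Among the 719 genes, the highest library was C1 for 367, C3 for 175, C2 for 91 and C4 for 86. TPM in C1 were higher in general, with a median of 19.0 over the described genes, against 16.6 to 17.3 in the others. The counts are not scaled for this. By gene type, 14.5% of protein-coding genes and 281 of 478 processed pseudogenes (58.8%) had a ratio of 2 or more.

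**Figure D4:**
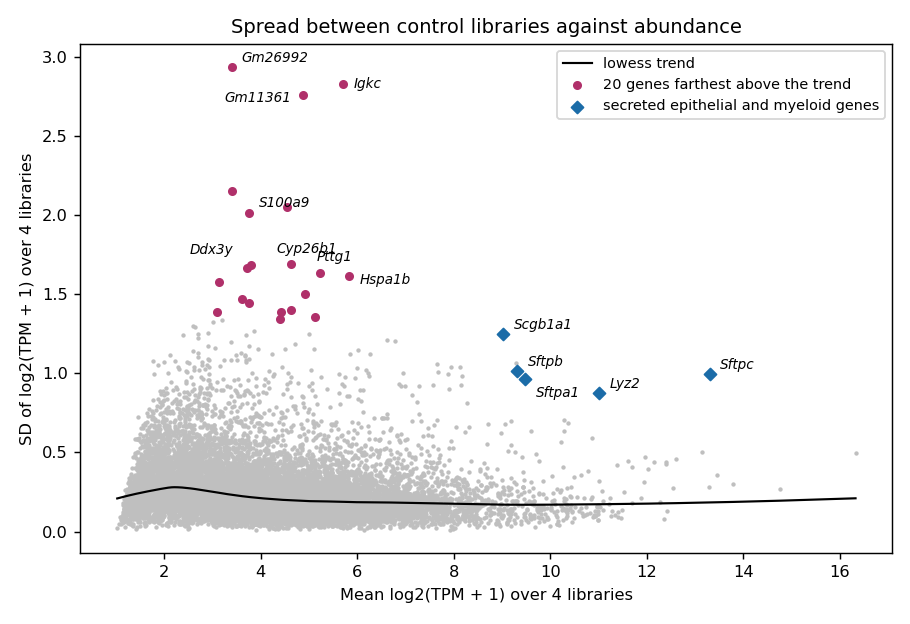
SD of log2(TPM + 1) over the 4 control libraries against the mean of log2(TPM + 1), 1 point per described gene, with the lowess trend as a line. The 20 genes farthest above the trend (red) have SDs from 1.35 to 2.93, and the secreted epithelial and myeloid genes (blue) stand out at high abundance with SDs from 0.876 to 1.25.

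The 20 genes with the largest excess of SD over the trend were of a few kinds. Of the 20, 6 are annotated as processed or unprocessed pseudogenes and 2 had no match in GENCODE. Gm26992, an X-linked gene model, led with 2.57 TPM in C1, 1.33 in C2, 6.49 in C3 and 205 in C4. It lies at chrX:103422010-103481705 on the plus strand, where it shares 21340 bases with Xist, the noncoding RNA that silences an X chromosome, on the opposite strand. It also shares 50189 bases with Tsix, the antisense RNA of Xist, and 2571 with Tsx, both on its own strand. The library kit does not mark strand, so reads of these genes cannot be told apart where they overlap, and the level of Xist itself was not analysed here. Of a list of 6 X- and Y-linked sex genes only 4 had deposited values, and these are the Y-linked genes that follow. The Y-linked genes showed the reverse pattern: Ddx3y had 26.1, 26.9, 19.4 and 1.45 TPM, Eif2s3y had 42.8, 36.1, 38.0 and 0.930, Kdm5d had 26.3, 19.0, 21.0 and 3.72, and Uty had 36.8, 32.1, 32.3 and 7.97. C4 was the lowest for all 4. The labels give no sex for the mice, and the study states only that its mice were of both sexes.

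Gm11361, a further protein-coding gene model, had 2.47, 155, 140 and 8.95 TPM in C1 to C4. Igkc had 33.4, 97.0, 482 and 3.50 TPM in C1 to C4. The neutrophil proteins S100a9 and S100a8 had 7.02, 39.7, 42.8 and 1.40 TPM and 7.19, 33.6, 21.1 and 2.56 TPM, and the chemokine Ccl3 had 2.25, 18.3, 48.9 and 8.34. Igkc, S100a9, S100a8 and Ccl3 were lower in C1 and C4 than in C2 and C3. Hspa1b, the inducible HSP70 chaperone, had 182, 41.1, 97.7 and 12.9 TPM. Zbtb16, a zinc finger repressor induced by glucocorticoids, had 69.5, 7.31, 13.9 and 41.4, and Fam107a, an actin-associated stress gene, had 75.9, 9.52, 8.97 and 25.1. Both were highest in C1 and next highest in C4. Cyp26b1, which degrades retinoic acid, was highest in C2 (113 TPM, against 6.88 to 31.2 in the others), and Pttg1, the securin of mitosis, was highest in C4 (174 TPM, against 14.1 to 42.5). The steadiest genes with a mean of at least 10 TPM were Dr1, Zfp958, Natd1, Cbr3 and Fars2; Dr1, a repressor of transcription by RNA polymerase II, had an SD of 0.013 on the log2 scale.

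**Figure D5:**
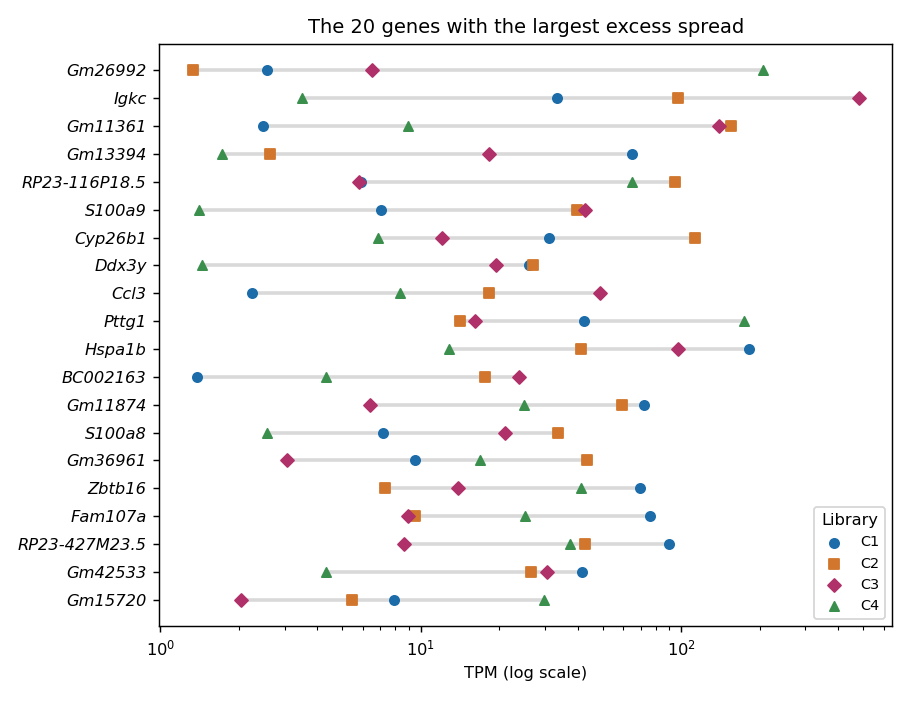
TPM (log scale) of the 20 genes with the largest excess spread in each of the 4 control libraries (points), joined by a grey line from the lowest to the highest. Gm26992 has 205 TPM in C4 and at most 6.49 in the others, and Ddx3y is lowest in C4.

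The MHC class II genes, and the sums of the MHC class I and interferon response lists, were highest in C1. All 7 MHC class II genes had a range of 2-fold or more with the highest value in C1, beside 16.6% of all described genes with such a range, and their sum was 6422, 3762, 3247 and 2423 TPM in C1 to C4. Cd74, the invariant chain, had 2242, 1222, 1119 and 775 TPM, and H2-Eb1 had 775, 201, 170 and 250. The 11 MHC class I genes summed to 18885, 14497, 11917 and 16079 TPM, with 5 genes of 2-fold range (45.5%), all highest in C1, and H2-T23, a nonclassical class I gene, had 548, 187, 142 and 428. C1 was the highest library for 42.1% of all described genes with a 2-fold range. Its TPM were higher in general, with a median of 19.0 over the described genes, against 16.6 to 17.3 in the others. The 20 interferon response genes summed to 2913, 2119, 1581 and 2108 TPM, and 6 (30%) had such a range, all highest in C1, among them the GTPases Igtp (315, 149, 99.0 and 139 TPM) and Gbp4 (307, 145, 71.5 and 119). Ifitm3, which is not on that list, had 4673, 4697, 2993 and 3688 TPM, with C1 and C2 nearly equal. The macrophage genes Cd68 and C1qb were also highest in C1 and lowest in C4, with 57.5, 55.2, 48.2 and 25.9 TPM and 31.2, 26.3, 23.8 and 15.2 TPM. Of the 9 myeloid markers with a 2-fold range 5 were highest in C1, 3 in C3, 1 in C2 and 0 in C4. The 7 fibroblast markers summed to 146, 95.3, 93.5 and 127 TPM, and 5 of the 6 described had a 2-fold range, all highest in C1. The T lymphocyte sum was highest in C1 through Lck, a T cell kinase with 22.1, 5.62, 6.72 and 7.88 TPM, and Cd3d, a chain of the T cell receptor complex, was highest in C4, at 12.1 TPM against 8.84 to 9.15. The part of such cells in the class II values was not tested.

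Proliferation, hypoxia and immediate early genes are given by their sums and by the share with a 2-fold range, which was 16.6% over all described genes. The 20 proliferation genes summed to 424, 387, 365 and 414 TPM, and 2 (10%) had a 2-fold range. Pcna, the clamp of DNA replication, had 129 ± 7.47 TPM (n = 4), and Top2a, a topoisomerase of dividing cells, had 34.5 ± 4.82. The 20 hypoxia and glycolysis genes summed to 2978, 3030, 2346 and 2399 TPM, led by Gapdh at 927 ± 107, and 6 (30%) had a 2-fold range. The 20 immediate early genes, which respond to tissue dissociation as well as to signals in the animal, summed to 3106, 3450, 3314 and 2838 TPM, and 8 (40%) had a 2-fold range.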

How the data were processed

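RNA-seq of CD45-CD31+ cells from LLC tumors at day 21 was used for the 4 control libraries (GEO labels: control), and the 4 endFoxf1+/- libraries were not used. The authors deposited 1 TPM value per gene symbol for each library, and these sum to 1000000. The submitters' processing notes name TopHat, Cufflinks, Subread, DESeq2, GRCm38 and mm10 without roles or versions, so the tool that made the TPM is not given in the sources used here. TPM keep no read numbers: counting error could not be computed. TPM divide by the library total, so a few very abundant genes lower all others. Libraries were prepared with Nextera XT, which keeps no strand.

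TPM were used as deposited. Genes with at least 1 TPM in all 4 libraries were described by mean, SD, rank, and SD of log2(TPM + 1) with its excess over a lowess trend (fraction 0.3). Python 3.11.15, pandas 2.3.3, statsmodels 0.14.6 and BLAST+ 2.17.0 were used. By symbol, 13160 of 13477 genes (97.6%) matched GENCODE vM21 (GRCm38), the source of coordinates. The computation was tested on simulated data. For 30 described genes all 4 values were exactly equal to those of another described gene, and the reason was not tested.

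Genes were named by a rule: Pecam1, Cdh5, Kdr, Foxf1 and Fzd4, the 20 highest by mean TPM, the 15 highest receptors, transcription factors and secreted factors, the 20 largest and 5 smallest excess SDs at a mean TPM of at least 10, the 4 highest of each other list, and relatives needed for a family's order. Not every gene the rule names is described, and 1 transcription factor is not reported here. Ptprc, Csf1r, Cd79a, Epcam, Cdh1, Prox1, Ackr1, Esm1 and the heat-shock genes of the closing section fall outside it and were chosen after their values were seen. The members, lists and rule were chosen with earlier results of these data known. With 1 group, no test between groups was run. Single libraries were screened for outliers with Dixon's critical value. The labels do not say more than that the 4 libraries come from control mice, so the spread covers animal and technical variation together. Alternatives were other TPM minimums and pseudocounts, rescaling, median-ratio and quantile scaling, and leaving out each library.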

Additional observations from a re-analysis of the deposited data

Results flagged for a closer look

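A library was set apart where its gap to the nearest other library was larger, relative to the whole range, than Dixon's 95% critical value for 4 samples. Of 233 values tried (160 named genes and 73 summed lists), 19 met this, and chance alone flags about 1 in 20 groups of independent values. That rate is no yardstick for the 19, since some of the genes were picked for their spread in these same libraries and the sums hold named genes. The extreme library was C4 for 7 of them, C3 for 6, C1 for 4 and C2 for 2.

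In C3 the extreme values were those of epithelial genes and Lyz2: Sftpc at 26986 TPM, Sftpa1 at 1914, Sftpb at 1788, Lyz2 at 4955, and the summed lists at 32723 TPM (alveolar and airway epithelial) and 5126 TPM (myeloid), of which Lyz2 made up nearly all. Of the 9 myeloid markers with a 2-fold range 5 were highest in C1 and 3 in C3. The values belong to overlapping lists and are not separate events.

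In C4 the extreme values were Gm26992 at 205 TPM, the Y-linked Eif2s3y at 0.930 and Uty at 7.97 TPM (both lowest), the protease inhibitor Cst3 at 1316, the T cell receptor chain Cd3d at 12.1, the basal keratin Krt5 at 0.956 and the TCF/LEF sum at 63.7 TPM. In C1 they were H2-Eb1 at 775 TPM, the T cell kinase Lck at 22.1, the smooth muscle actin Acta2 at 27.2 and the phosphatase Dusp1 at 296 (lowest). In C2 they were Dr1 at 14.3 TPM and Zfp958 at 10.7, both among the steadiest genes of the profile, so that the gap is small in TPM.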

How the results depend on the processing

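No paired analysis was possible because only 1 group was described. Rescaling without mitochondrial genes and Gm20594 lowered the mean share of the 10 most abundant genes from 19.1% to 11.2% and of the first 100 from 38.1% to 29.3%, and raised the geometric mean of the endothelial markers from 484 to 568 TPM, since these genes hold much of the total. A minimum of 5 TPM left 178 receptors and 187 secreted factors. The 2232 genes with a 2-fold range became 602 with a pseudocount of 5 and 770 with a minimum of 5 TPM, since both remove or damp low genes, and 1452 to 1859 when 1 library was left out and genes were chosen again in the other 3. With a pseudocount of 0.1 the mean log2 level moved by more than its SD for 12 of 160 named genes, with 5 for 17, and with median-ratio or quantile scaling for 0. Leaving out 1 of 4 libraries cannot move a mean by its SD, so for named genes it says nothing about stability. The number of described genes stayed within 1.5 times of 13477 under all 8 alternatives tried (9917 to 18061). Depth is unknown, so the spread of low genes cannot be split into counting error and differences between mice.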

Other observations

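A few further heat-shock genes were looked up by hand after Hspa1b was seen among the most variable genes, so they are no fixed list and are given as values. Hspb1, a small heat-shock protein, had 1743 TPM in C1, 336 in C2, 634 in C3 and 402 in C4. Hsph1, an HSP110 chaperone, had 278, 63.7, 124 and 39.5 TPM, and Hspa8, the constitutive HSC70, had 3342, 1280, 1715 and 1681. Hspa1a, the paralog of Hspa1b with near-identical sequence, had 140, 59.5, 145 and 27.7 TPM, with C3 and C1 close together, and Dnajb1, an HSP40 cochaperone, had 66.1, 56.1, 80.5 and 53.2 TPM with C3 highest. C1 was also the library with the lowest mitochondrial share (3.91%) and the highest MHC class II sum.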
